A study of Mus musculus with 12 samples.

Results

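Hepatic expression of 10 genes of iron storage, iron uptake and hepcidin control was described in IDH2 KO and WT mice. The genes were chosen by name, as the rows of the count table called *Hamp*, *Hamp2*, *Trf*, *Tfrc*, *Tfr2*, *Fth1*, *Ftl1*, *Slc40a1*, *Hfe* and *Bmp6*, out of 36228 rows in all. Liver RNA came from 3 female and 2 male IDH2 KO mice, which carry a germ-line knockout of *Idh2*, and from 4 female and 3 male WT littermates. All 12 mice were C57BL/6N and 8 to 10 weeks old, and each gave 1 TruSeq RNA library, read from single ends over 50 bases. The data therefore allow a comparison of IDH2 KO with WT livers, with sex as a term, and of females with males, with genotype as a term.

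Hepcidin is a small peptide hormone made by hepatocytes, and it limits the entry of iron into plasma by binding ferroportin, the only known iron exporter of mammalian cells, which is then degraded. The mouse has a pair of hepcidin genes. *Hamp* encodes the hormone that acts on iron, while *Hamp2* encodes a related peptide that has not been shown to do so. Hepatocytes adjust *Hamp* to iron through BMP6 from the liver endothelium and through HFE and transferrin receptor 2 on their own surface, and to inflammation through interleukin 6 and STAT3. Iron travels in blood on transferrin (*Trf*), enters cells by transferrin receptor 1 (*Tfrc*), is stored in ferritin shells of heavy (*Fth1*) and light (*Ftl1*) chains, and leaves by ferroportin (*Slc40a1*).

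The libraries held 15323300 to 25019649 counted reads. *Idh2* had 1 to 7 reads in the IDH2 KO libraries, against 967 to 2363 in the WT libraries. Library IDH2 KO female 3 stood apart: reads fell on 8531 genes, against 10482 to 12873 in the other libraries, and its median correlation with the others was 0.83, against at least 0.92. In this library the median log2 difference from the other females was 0.50 over the 1459 tested genes with the shortest transcripts (up to 1689 bases) and −0.98 over the 1457 with the longest (4035 bases or more), and many of the values that moved without it are also given without it. Of 8 hepatocyte markers 7 had reads, at a summed level of 89208 to 239003 CPM in IDH2 KO and 121130 to 223422 CPM in WT livers, whereas *Cps1*, a major hepatocyte enzyme of the urea cycle, had none. CPM stands for counts divided by a library size that TMM had adjusted.

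The promoters of the hepcidin genes are shown because *Hamp2*, and not *Hamp*, differed between the sexes in these livers, while the sequences are close to identical. The windows hold the 250 bases before the RefSeq start of each gene on the minus strand of GRCm38.p6, at chr7:30944030-30944279 for *Hamp* and chr7:30924182-30924431 for *Hamp2*. Capitals mark the BMP responsive element of *Hamp* with the bases aligned to it in *Hamp2*, and, after it, the STAT site.
Hamp: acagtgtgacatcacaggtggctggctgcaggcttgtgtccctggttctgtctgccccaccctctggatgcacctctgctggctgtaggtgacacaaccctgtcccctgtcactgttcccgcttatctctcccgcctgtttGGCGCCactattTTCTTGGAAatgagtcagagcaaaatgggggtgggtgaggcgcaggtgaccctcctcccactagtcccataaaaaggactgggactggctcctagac
Hamp2: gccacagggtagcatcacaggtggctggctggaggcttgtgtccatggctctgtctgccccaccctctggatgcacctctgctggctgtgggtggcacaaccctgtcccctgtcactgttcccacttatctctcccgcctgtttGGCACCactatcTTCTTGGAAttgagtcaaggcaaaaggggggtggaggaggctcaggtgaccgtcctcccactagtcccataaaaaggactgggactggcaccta

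With *Hamp2* shifted by 3 bases, 227 of 247 compared positions were identical (91.9%) and 20 differed. GGCGCC, the core of the BMP responsive element, begins at −109 in *Hamp*. It is absent from the window of *Hamp2*, where the substitution G145A gives GGCACC (positions counted from 1 at the 5′ end of the *Hamp* window, the *Hamp* base first). The STAT site TTCTTGGAA, through which interleukin 6 is known to act on hepcidin, is intact in both, at −97 in *Hamp* and −94 in *Hamp2*. Among 32851 RefSeq windows of 300 bases (250 before and 50 after a start), searched on both strands, GGCGCC was present in 11.9% and TTCTTGGAA in 0.417%, and both together in 7 windows. Both hepcidin windows also hold the GATA sequence TTATCT, present in 11.2% of all windows, and the E-box CAGGTG 2 times each, present in 20.2%. A match of letters is a description and not a site of binding.

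**Figure D1:**
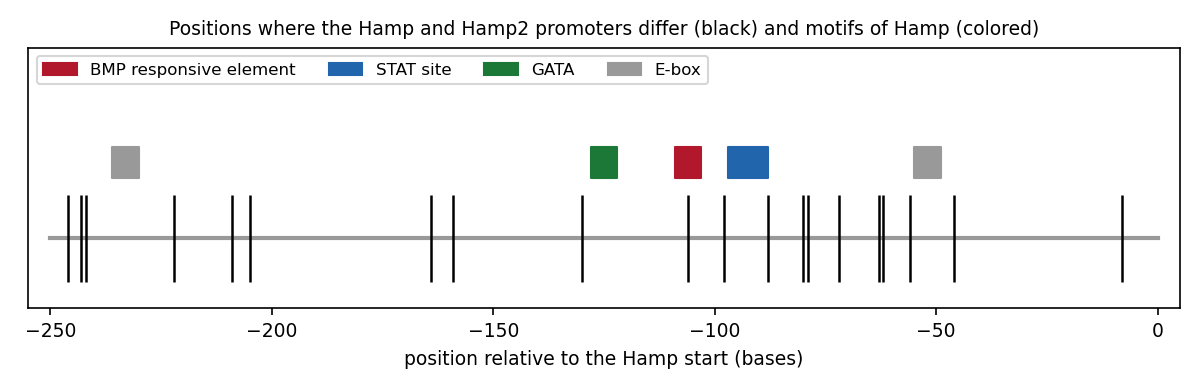
Map of the 250 bases before the start of *Hamp* (x axis, bases relative to the start); black lines are the 20 positions at which *Hamp2* carries another base, and colored bars are the motifs found in *Hamp*. A difference falls inside the BMP responsive element, and none falls inside the STAT site, the GATA sequence or an E-box.

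Iron acts on the ferritins and on the transferrin receptor also after transcription, through iron responsive elements, short hairpins bound by the iron regulatory proteins when iron is low. They are shown because counts of mRNA do not read the part of this control that acts on translation. The ferritin chains carry the element near the 5′ end of the transcript, the position known to block translation, and so does ferroportin. *Tfrc* carries 4 copies toward its 3′ end, the position known to stabilize the mRNA, and its first copy is printed. Capitals mark the 6-base loop.
Fth1: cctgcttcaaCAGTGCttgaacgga
Ftl1: cttgcttcaaCAGTGTttgaacgga
Slc40a1: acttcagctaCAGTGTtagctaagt
Tfrc: ttatcggaagCAGTGCcttccataa

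The loops begin at base 99 of the *Fth1*, 90 of the *Ftl1*, 102 of the *Slc40a1* and 3327 of the *Tfrc* transcript (GENCODE M21). The search asked for a bulged C, 5 paired bases and a loop CAGTGN. In the first 200 bases of a transcript, 16 of 21877 genes (0.0731%) hold such an element, and *Fth1*, *Ftl1* and *Slc40a1* are among them.

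Of the 10 genes, 8 had reads and passed the filter on low counts, and 2 had no read in any library. *Slc40a1*, the ferroportin gene, on chromosome 1 of GRCm38 from 45908068 to 45926523, and *Tfrc*, on chromosome 16 from 32608920 to 32632794, were both at 0 in the 5 IDH2 KO and the 7 WT libraries. Over all 241346756 counted reads, a count of 0 allows up to 3 reads, or 0.0124 RPM, by counting error alone. Liver is known to express both genes, and how the counting treated reads that fit several transcripts is not given in the sources used here. RefSeq lists 3 transcripts for *Slc40a1* and 2 for *Tfrc*. Among the iron genes of the table with a RefSeq entry, 25 of 66 with 2 or more transcripts had no read in any library (37.9%), against 0 of 31 with a single transcript. Across all rows of the table the shares were 51.2% and 52.4%. Neither gene is compared between groups, and their zeros are not read as absence of the mRNA.

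As counted, levels per kb of transcript spanned more than 4 orders of magnitude, with the plasma carrier highest and the sensors of iron lowest. *Trf* averaged 9654 ± 2255 CPM per kb (SD, n = 12) and was the gene of rank 10 of the whole table by mean CPM, taking 1.86% to 4.10% of the reads of a library. *Ftl1* followed with 3642 ± 961 CPM per kb, lower than *Trf* in 12 of 12 libraries. *Hamp* with 912 ± 437 and *Fth1* with 902 ± 306 CPM per kb could not be ordered, since *Hamp* was the higher in 6 of 12 libraries. *Hamp2* averaged 250 ± 227 CPM per kb and was lower than *Fth1* in 12 of 12.

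The 3 genes that act upstream of hepcidin lay far below. *Tfr2* averaged 1.09 ± 0.47, *Bmp6* 0.68 ± 0.29 and *Hfe* 0.27 ± 0.15 CPM per kb (SD, n = 12 each). *Tfr2* exceeded *Bmp6* in 9 of 12 libraries and *Bmp6* exceeded *Hfe* in 11 of 12, with overlapping ranges. Counting limits these low genes: *Hfe* rested on 0 to 53 reads a library, *Tfr2* on 6 to 103 and *Bmp6* on 17 to 105, whereas *Hamp* had at least 2503 and *Ftl1* at least 44023. RefSeq lists 8 transcripts for *Tfr2*, 4 for *Hfe* and 1 for *Bmp6*. How reads that fit several transcripts were counted is not known, and its part in these levels and their order was not tested.

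**Figure D2:**
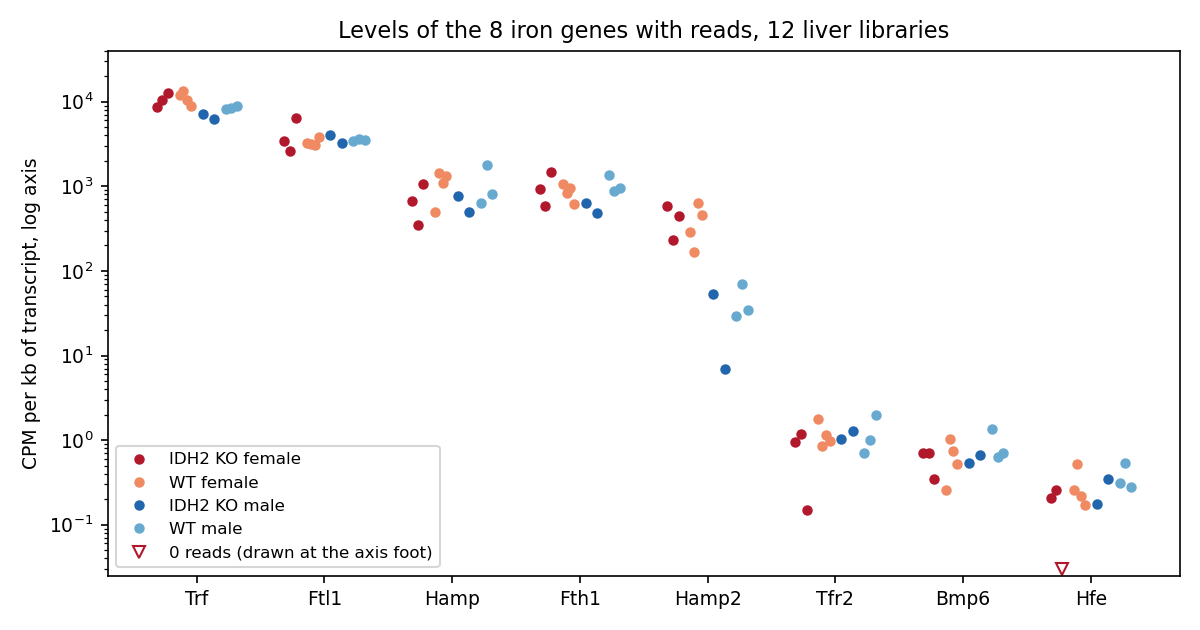
Level of each of the 8 genes with reads (y axis, CPM per kb of transcript, log axis) in the 12 libraries, colored by group; the open triangle is a library with 0 reads. *Trf* averaged 9654 and *Hfe* 0.27 CPM per kb, and *Hamp2* is the gene whose males lie well below its females.

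Some counts depend on how reads from near-copies were assigned. *Hamp* and *Hamp2* lie about 20 kb apart on chromosome 7 (30942368 to 30944032 and 30922372 to 30924681, GRCm38), and their transcripts are 88.8% identical. Of the 50-base windows of the *Hamp2* transcript, 60 of 388 (15.5%) occur unchanged in *Hamp*, and 16.6% of those of *Hamp* occur in *Hamp2*. For *Ftl1*, 78.9% of windows are shared with other annotated genes, mostly ferritin pseudogenes, and for *Trf* 79.8% are shared with the overlapping gene model *Gm20425*. *Fth1* shared 6.59% and *Hfe* 2.02%, while *Tfr2*, *Bmp6*, *Tfrc* and *Slc40a1* shared none. The 7 further ferritin rows of the table, all of the *Fthl17* group, had 0 reads.

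Of the hepcidin genes, *Hamp2* was separated by sex and *Hamp* was not. *Hamp2* had 253, 102 and 194 CPM in IDH2 KO females and 126, 73.1, 275 and 203 CPM in WT females. It had 23.5 and 3.00 CPM in IDH2 KO males and 12.8, 30.4 and 14.9 CPM in WT males. Every female exceeded every male, in both genotypes, and the lowest female (73.1 CPM) stood above the highest male (30.4 CPM).

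The mean was 175 ± 76.8 CPM in females (SD, n = 7) and 16.9 ± 10.5 CPM in males (SD, n = 5). The log2 fold change of females over males was 3.39 (SE 0.51), or 10.5-fold, with a p of 0.00152 after Benjamini-Hochberg adjustment over 7618 genes (edgeR, quasi-likelihood). Within IDH2 KO livers the means differed 13.8-fold, and within WT livers 8.72-fold. Of all genes tested, 1.16% were called higher in females (4.41% were called in either direction by DESeq2), and 2.73% had no overlap between the sexes. Among the 88 genes called higher in females, *Hamp2* ranked number 27 by p and number 30 by fold. The call held without IDH2 KO female 3 (log2 fold change 3.35, adjusted p = 0.0182) and among WT libraries only (3.12, adjusted p = 0.0124).

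*Hamp* showed no such split. It had 275, 142 and 433 CPM in IDH2 KO females, 202, 596, 449 and 544 CPM in WT females, 315 and 205 CPM in IDH2 KO males, and 263, 731 and 332 CPM in WT males. The sexes overlapped over nearly their whole range, with 377 ± 173 CPM in females (SD, n = 7) and 369 ± 208 CPM in males (SD, n = 5). Females over males gave a log2 fold change of 0.06 (SE 0.33, adjusted p = 0.978, edgeR), and its sign changed under 9 of 22 alternatives.

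**Figure D3:**
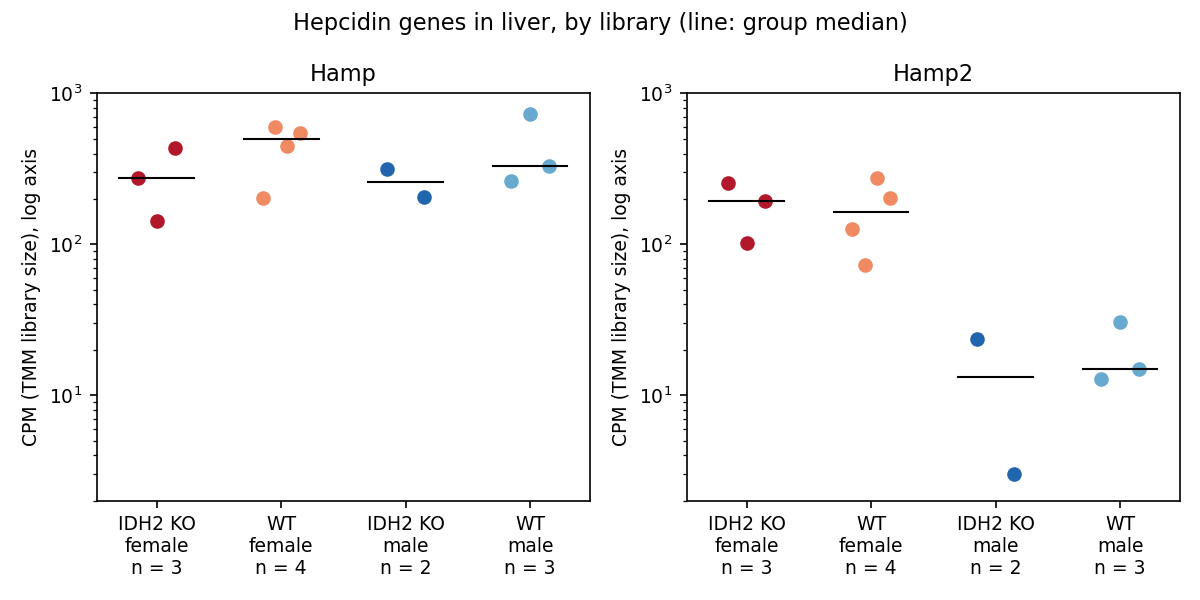
CPM of *Hamp* (left) and *Hamp2* (right) in each library (y axis, log axis), by genotype and sex; horizontal lines are group medians. *Hamp2* lay at 73.1 CPM or above in the 7 females and at 30.4 CPM or below in the 5 males, while for *Hamp* the groups overlap.

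Between genotypes *Hamp* was lower in IDH2 KO livers by a margin that did not pass the test over all genes. It averaged 274 ± 111 CPM in IDH2 KO (SD, n = 5) and 445 ± 191 CPM in WT livers (SD, n = 7), a log2 fold change of −0.70 (SE 0.34). The unadjusted p was 0.0563 and the adjusted p 0.750 by edgeR with Benjamini-Hochberg adjustment. The means of IDH2 KO were 0.632 times those of WT in females and 0.588 times in males. The genotypes overlapped, and 2 of 5 IDH2 KO mice were lower than all WT mice of the same sex. Without IDH2 KO female 3, the IDH2 KO female of highest *Hamp*, the log2 fold change was −0.93 with an unadjusted p of 0.0234 and an adjusted p of 0.427 (edgeR).

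*Hamp2* had 115 ± 108 CPM in IDH2 KO (SD, n = 5) and 105 ± 102 CPM in WT livers (SD, n = 7), and most of both spreads is the difference between the sexes. With sex in the model the log2 fold change was −0.15 (SE 0.45, adjusted p = 0.968, edgeR), and its sign changed under 4 of 23 alternatives. At this spread no difference of *Hamp2* between the genotypes was detectable.

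A ratio taken within a library needs no scaling between libraries. *Hamp2* made up 48.0%, 41.7% and 31.0% of the hepcidin reads of IDH2 KO females, and 38.4%, 10.9%, 37.9% and 27.1% of those of WT females. In IDH2 KO males it made up 6.96% and 1.45%, and in WT males 4.66%, 4.00% and 4.31%. The 95% Wilson intervals, which cover counting error only, were 30.0% to 32.0% for IDH2 KO female 3 and 1.12% to 1.87% for IDH2 KO male 2. The share of females and that of males did not overlap, though WT female 2 (10.9%) came nearest to the males, with the highest *Hamp* (596 CPM) and the lowest *Hamp2* (73.1 CPM) of the females.

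The log2 ratio of *Hamp2* over *Hamp* was −1.09 ± 0.96 in females (SD, n = 7) and −4.65 ± 0.87 in males (SD, n = 5). The difference, with genotype as a term, was 3.55, an 11.7-fold higher ratio in females (exact permutation test within genotype, two-sided, p = 0.00286, the smallest that 350 splits can give; adjusted p = 0.0114 over 4 tests). Between genotypes the ratio differed by 0.33 log2 units (exact permutation p = 0.560), with −2.32 ± 2.54 in IDH2 KO (SD, n = 5) and −2.75 ± 1.79 in WT livers (SD, n = 7). Because part of each transcript is shared, reads of *Hamp* assigned to *Hamp2*, or the reverse, would change these shares, and their part in the result was not tested.

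**Figure D4:**
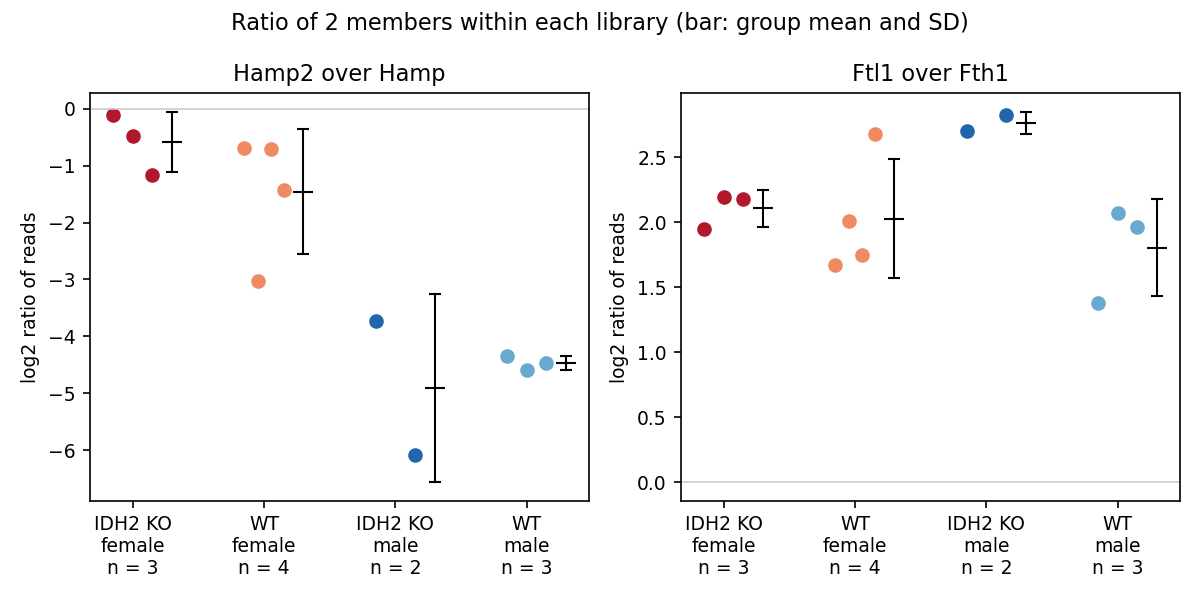
log2 ratio of reads of *Hamp2* over *Hamp* (left) and of *Ftl1* over *Fth1* (right) in each library, by genotype and sex; bars are the group mean and SD. The *Hamp2* ratio averaged −1.09 in females and −4.65 in males, and the *Ftl1* ratio averaged 2.37 in IDH2 KO and 1.93 in WT livers.

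The upstream regulators of *Hamp* in the set did not pass the test in either comparison. *Bmp6* encodes the ligand that liver endothelium releases when iron is high. It had 2.54, 2.50 and 1.26 CPM in IDH2 KO females, 0.93, 3.69, 2.71 and 1.90 CPM in WT females, 1.92 and 2.38 CPM in IDH2 KO males, and 4.85, 2.25 and 2.53 CPM in WT males. The groups overlapped throughout. Log2 fold changes were −0.31 for IDH2 KO over WT (SE 0.37, adjusted p = 0.901) and −0.29 for females over males (SE 0.36, adjusted p = 0.842; edgeR).

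*Hfe* encodes the protein altered in the most common hereditary hemochromatosis of humans. It had 18, 16 and 0 reads in IDH2 KO females and 14 and 24 reads in IDH2 KO males. It had 18, 53, 16 and 13 reads in WT females and 19, 47 and 15 reads in WT males. The library without a read was IDH2 KO female 3, where a count of 0 allows up to 0.222 CPM. IDH2 KO over WT gave a log2 fold change of −0.73 (SE 0.57, adjusted p = 0.824, edgeR), and −0.42 without that library.

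*Tfr2* encodes the second transferrin receptor, which acts in hepatocytes as a sensor of iron-loaded transferrin. It had 2.83, 3.53 and 0.44 CPM in IDH2 KO females, 5.29, 2.57, 3.45 and 2.92 CPM in WT females, 3.04 and 3.83 CPM in IDH2 KO males, and 2.07, 3.02 and 5.87 CPM in WT males. IDH2 KO female 3 was again the low library, with 6 reads. For IDH2 KO over WT the log2 fold change was −0.40 (SE 0.42, adjusted p = 0.892, edgeR), and −0.11 without it. *Hfe*, *Tfr2* and *Bmp6* have the longest transcripts of the 8 genes (2973 to 3593 bases), and in that library their log2 differences from the other females were −0.64 to −2.03. For *Hamp*, *Hamp2*, *Fth1* and *Ftl1* (410 to 968 bases) the differences were 0.33 to 1.01. *Trf*, of 2571 bases, had 0.27, where the tested genes of 1690 to 2667 bases had a median of −0.22. The part of transcript length in these values was not tested.

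*Trf*, the plasma iron carrier that hepatocytes secrete, had 22173, 27191 and 32838 CPM in IDH2 KO females and 30844, 34682, 27171 and 23088 CPM in WT females. It had 18196 and 15888 CPM in IDH2 KO males and 21135, 21576 and 23063 CPM in WT males. All but 1 of the 7 females exceeded all 5 males, and the exception, IDH2 KO female 1, lay below only 1 male. The mean was 28284 ± 4744 CPM in females (SD, n = 7) and 19972 ± 2886 CPM in males (SD, n = 5). The log2 fold change of females over males was 0.52 (SE 0.19) with an unadjusted p of 0.0154, which did not pass over all genes (adjusted p = 0.244, edgeR).

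The same carrier did not differ between genotypes beyond the spread. It averaged 23257 ± 6863 CPM in IDH2 KO (SD, n = 5) and 25937 ± 5173 CPM in WT livers (SD, n = 7). The log2 fold change was −0.19 (SE 0.19, adjusted p = 0.877, edgeR). Both IDH2 KO males lay below all 7 WT libraries, a split whose share of all genes was not computed.

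The ferritin chains were abundant and were not called in either comparison. *Ftl1* had 3279, 2505 and 6265 CPM in IDH2 KO females, 3155, 3098, 3003 and 3717 CPM in WT females, 3860 and 3187 CPM in IDH2 KO males, and 3315, 3476 and 3444 CPM in WT males. WT livers varied by only 7.53% (SD over mean, n = 7), and the spread of IDH2 KO livers was widest at IDH2 KO female 3. IDH2 KO over WT had a log2 fold change of 0.20 (SE 0.22, adjusted p = 0.892, edgeR), and it turned to −0.05 without that library.

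*Fth1*, whose product oxidizes iron for storage, had 852, 548 and 1385 CPM in IDH2 KO females, 991, 772, 895 and 581 CPM in WT females, 593 and 451 CPM in IDH2 KO males, and 1278, 826 and 883 CPM in WT males. Both IDH2 KO males lay below the 3 WT males, a split whose share of all genes was not computed. In females the genotypes overlapped. For *Fth1* over all libraries the log2 fold change of IDH2 KO over WT was −0.25 (SE 0.28, adjusted p = 0.899, edgeR). Without IDH2 KO female 3 it was −0.53, with an unadjusted p of 0.0216 and an adjusted p of 0.419 (edgeR). Between the sexes neither ferritin differed detectably (adjusted p = 0.982 for *Ftl1* and 0.914 for *Fth1*, edgeR), and the signs of both changed with the scaling.

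Light chain reads exceeded heavy chain reads in all 12 libraries. The ratio of *Ftl1* over *Fth1* was 3.85, 4.57 and 4.52 in IDH2 KO females, 3.18, 4.02, 3.36 and 6.40 in WT females, 6.51 and 7.07 in IDH2 KO males, and 2.59, 4.21 and 3.90 in WT males. The males did not overlap between the genotypes, and how often ratios of other genes split so was not computed. In females WT female 4 lay above all 3 IDH2 KO mice. With sex as a term the log2 ratio differed by 0.44, with 2.37 ± 0.38 in IDH2 KO (SD, n = 5) and 1.93 ± 0.41 in WT livers (SD, n = 7). The exact permutation test within sex, two-sided, gave p = 0.103, and the adjusted p was 0.206 over 4 tests. With each library left out in turn, the difference was 0.32 (without WT male 1) to 0.59 (without WT female 4). The exact permutation p of these omissions was 0.0100 (without WT female 4) to 0.229, not adjusted. Between females and males no difference in this ratio was detectable (−0.14, exact permutation p = 0.574). RefSeq lists 2 transcripts for *Fth1* and 1 for *Ftl1*. Of their 50-base windows, 6.59% for *Fth1* and 78.9% for *Ftl1* are shared with other genes. The part of read assignment in this ratio was not tested.

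**Figure D5:**
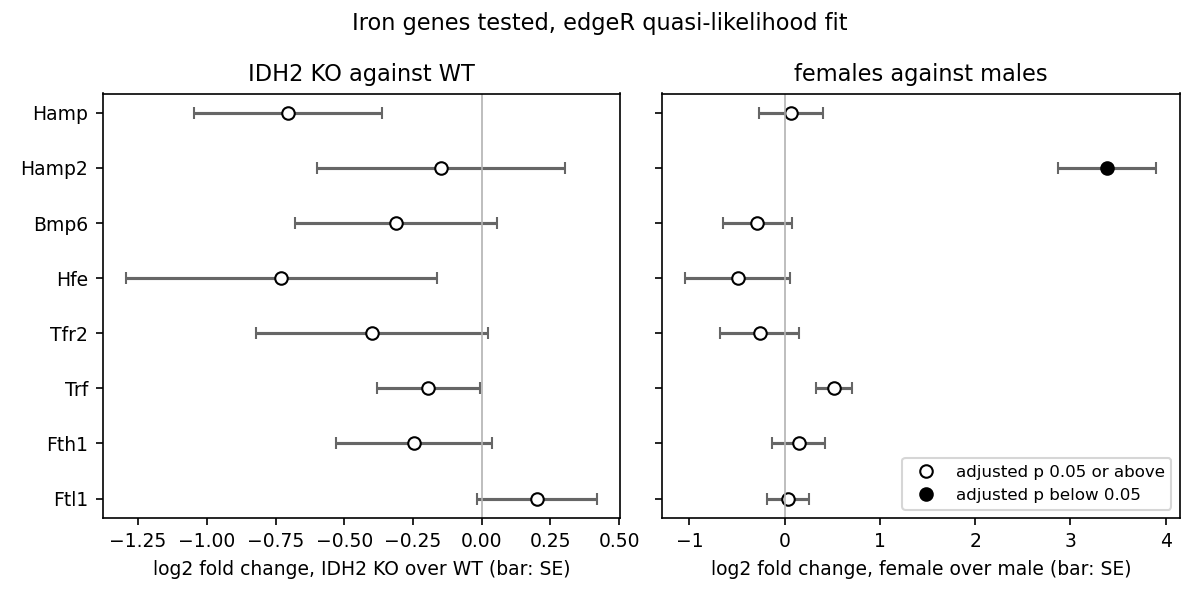
log2 fold change of the 8 genes tested (x axis; bars are the SE of the edgeR fit) for IDH2 KO over WT (left) and for females over males (right); filled points passed an adjusted p of 0.05. *Hamp2* at 3.39 in females over males is the only filled point, and *Hamp* at −0.70 is the lowest but 1 in IDH2 KO over WT.

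None of the 8 genes was called between IDH2 KO and WT by edgeR, where 0.381% of all 7618 genes were (0.171% higher and 0.21% lower), and none had an unadjusted p under 0.05, where 6.72% of all genes did. DESeq2 called none of the 8 and 0.827% of all genes. In none of the 8 did the genotypes fail to overlap, as they did in 0.669% of all genes. In this comparison 7 of the 8 had a negative log2 fold change, with a median of −0.28, against a median of −0.0045 over all genes tested, of which 49.5% were positive. Between females and males 1 of 8 was called, *Hamp2*, by both edgeR and DESeq2, where edgeR called 1.98% of all genes (0.827% lower in females), and 2 of 8 had an unadjusted p under 0.05, where 12.2% did. The median of the 8 was 0.05, against −0.0084 over all genes. The interaction of genotype and sex was called for none of the 8 and for 0 of 8644 genes by edgeR (274, or 3.17%, at an unadjusted p under 0.05, among them *Fth1*, and 10, or 0.116%, by DESeq2, none of them of the set). *Hamp*, *Hamp2* and *Ftl1* lie on chromosome 7 with *Idh2* (80094846 to 80115392), and the part of sequence linked to the deleted allele was not tested.

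A wider list of 91 genes of iron handling was examined in the same fits, of which 89 were in the table, 25 had no read and 46 were tested. No gene of it was called by edgeR in either comparison, and 5 had an unadjusted p under 0.05 (3 higher and 2 lower in IDH2 KO than in WT), where 6.72% of all genes did. The median log2 fold change of the 46 was −0.02, against −0.0045 over all genes. Of the 16 genes of BMP and SMAD control 9 had no read, a share near that of the whole table, where 17289 of 36228 rows had reads. Among the 9 were the coreceptor *Hjv*, the receptors *Bmpr1a* and *Acvr1*, and *Smad1*, *Smad4* and *Smad5*. Within the iron genes, zeros were found in 25 of 66 with 2 or more RefSeq transcripts and in 0 of 31 with 1. Across all rows the shares were 51.2% and 52.4%, and the part of transcript number was not tested. The zeros of the wider list, with those of *Cp* and *Alas1* below, are not read as absence of the mRNA.

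Of the 5 genes tested in that group, none passed. The lowest p belonged to *Tmprss6*, the protease that is known to restrain hepcidin, at 11.9 ± 5.59 CPM in IDH2 KO (SD, n = 5) and 15.8 ± 3.01 CPM in WT livers (SD, n = 7; log2 fold change −0.40, adjusted p = 0.850, edgeR). *Pcsk7*, a proprotein convertase, averaged 0.21 CPM in IDH2 KO and 0.53 CPM in WT livers (adjusted p = 0.874). *Fkbp1a*, which holds BMP receptors inactive, averaged 63.4 CPM in IDH2 KO and 52.1 CPM in WT livers (adjusted p = 0.891). IDH2 KO female 3 held the lowest *Tmprss6* (2.74 CPM) and the highest *Fkbp1a* (116 CPM), and without it the log2 fold changes were −0.13 for *Tmprss6* and −0.029 for *Fkbp1a*.

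The targets of BMP and SMAD signaling, which in hepatocytes are known to move with *Hamp* when iron changes, were not called either. All 5 tested had a positive log2 fold change in IDH2 KO over WT, with a median of 0.39, which was 0.24 without IDH2 KO female 3. *Id1* had 2.45 ± 1.77 CPM in IDH2 KO (SD, n = 5) and 1.00 ± 0.44 CPM in WT livers (SD, n = 7), a log2 fold change of 0.97 (unadjusted p = 0.0299, adjusted p = 0.681, edgeR). The ranges were 0.27 to 4.41 CPM in IDH2 KO and 0.53 to 1.79 CPM in WT livers, and the lowest library was an IDH2 KO male. Males of both genotypes had 0.27 to 0.98 CPM, and females 0.98 to 4.41 CPM. The interaction of genotype and sex for *Id1* was 1.51 log2 units and was not called (unadjusted p = 0.0712, edgeR). *Id2* had 92.0 ± 29.3 CPM in IDH2 KO and 67.1 ± 16.7 CPM in WT livers (adjusted p = 0.763), and *Atoh8* 49.8 ± 22.8 CPM in IDH2 KO and 36.7 ± 10.1 CPM in WT livers (adjusted p = 0.813). *Atoh8* was highest in IDH2 KO female 3 (87.9 CPM), and without it the log2 fold change of *Atoh8* was 0.15 in place of 0.39, with a mean of 40.3 CPM in IDH2 KO livers. Of the Kupffer cell markers tested, 8 of 9 likewise had a positive log2 fold change, none of them called, with a summed level of 258 to 810 CPM in IDH2 KO and 171 to 615 CPM in WT livers. Of the endothelial markers 3 of 8 were positive, with sums of 56.9 to 142 CPM in IDH2 KO and 54.8 to 146 CPM in WT livers. Stellate markers were positive in 5 of 6, with sums of 23.2 to 58.8 CPM in IDH2 KO and 10.1 to 58.8 CPM in WT livers. Larger medians were those of the erythroid list, with 4 of 7 positive, a median log2 fold change of 1.74 and sums of 44.2 to 313 CPM (median 219) in IDH2 KO and 24.2 to 151 CPM (median 35.5) in WT livers, and of the B and T cell list, with 4 of 4 positive, a median of 1.34 and median sums of 12.5 CPM in IDH2 KO and 3.67 CPM in WT livers. No gene of these lists was called between the genotypes. The part of cell composition was not tested, and in whole liver fewer cells of a type and less RNA per cell cannot be told apart.

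Among 13 tested genes of interleukin 6 signaling and the acute phase none was called by edgeR. *Lcn2*, a secreted protein that binds the iron-carrying siderophores of bacteria, had 9.51 CPM in the median IDH2 KO library (range 1.19 to 153) and 5.91 CPM in the median WT library (range 1.40 to 10.4). The 153 CPM were those of IDH2 KO female 3. The log2 fold change was 2.42 (SE 0.64, adjusted p = 0.246, edgeR), DESeq2 alone called it (adjusted p = 0.00788), and without that library it was 1.06. *Saa3*, an acute phase protein, had 7.22 ± 4.16 CPM in IDH2 KO (SD, n = 5) and 3.35 ± 0.74 CPM in WT livers (SD, n = 7; log2 fold change 1.08, unadjusted p = 0.00640, adjusted p = 0.455, edgeR). The highest value, 13.8 CPM, was that of IDH2 KO female 3, and without it the log2 fold change of *Saa3* was 0.75, with a mean of 5.59 CPM in IDH2 KO livers. *Cebpa*, a transcription factor of hepatocytes, was low, at 0.34 ± 0.21 CPM in IDH2 KO and 1.06 ± 0.58 CPM in WT livers (log2 fold change −1.59, unadjusted p = 0.0217, adjusted p = 0.624). It rested on 35 reads in all IDH2 KO and 158 in all WT libraries, with 0 CPM in IDH2 KO female 3. Without that library the log2 fold change of *Cebpa* was −1.31 (adjusted p = 0.421, edgeR), and over all alternatives it was −2.04 to −0.59.

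The other groups held no called gene. In iron transport 4 of 17 genes were tested, and the ferroxidase gene *Cp* had no read. The endosomal sorting protein *Snx3* (log2 fold change −0.17), the metalloreductase *Steap4* (−0.23) and the lysosomal channel *Mcoln1* (−0.05) had the lowest p, all with an adjusted p of at least 0.892 (edgeR). Without IDH2 KO female 3 these were −0.068 for *Snx3* and 0.059 for *Steap4*. In ferritin and iron sensing 7 of 12 were tested. *Aco1*, the gene of iron regulatory protein 1, had 159 ± 74.8 CPM in IDH2 KO (SD, n = 5) and 207 ± 18.3 CPM in WT livers (SD, n = 7; adjusted p = 0.813, edgeR), with 58.6 CPM in IDH2 KO female 3. Without that library the log2 fold change of *Aco1* was −0.17 in place of −0.39, with a mean of 184 CPM in IDH2 KO livers. The iron chaperone *Pcbp1* (log2 fold change −0.24) and *Fbxl5*, which marks iron regulatory protein 2 for degradation (0.24), were likewise not called.

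In heme metabolism 12 of 20 genes were tested, and *Alas1*, the rate-limiting enzyme of heme synthesis in liver, had no read. *Blvra*, biliverdin reductase A, had 24 reads in all IDH2 KO and 107 in all WT libraries (log2 fold change −1.49, unadjusted p = 0.0452, adjusted p = 0.730, edgeR). At this low count the value was −2.14 without IDH2 KO female 2 and −0.46 by limma on log2 RPM plus 1. *Lrp1*, a receptor that takes up heme bound to hemopexin, had 444 ± 212 CPM in IDH2 KO (SD, n = 5) and 582 ± 164 CPM in WT livers (SD, n = 7; adjusted p = 0.802), a log2 fold change of −0.41, or −0.20 without IDH2 KO female 3. *Hmox1*, heme oxygenase 1, had 20.1 ± 5.50 CPM in IDH2 KO and 15.8 ± 5.81 CPM in WT livers (adjusted p = 0.824).

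Between the sexes, 8 of the 46 had an unadjusted p under 0.05 (7 higher and 1 lower in females), where 12.2% of all genes did. DESeq2 called 4 of the 46, where it called 4.41% of all genes, and edgeR called none of the 4. They are named after their values were seen: *Id1* (log2 fold change 1.64, edgeR adjusted p = 0.0726), *Id3* (0.90, 0.116) and *Lcn2* (2.79, 0.0605) had positive values, higher in females, and *Cebpd* (−1.08, 0.0694) a negative value. Without IDH2 KO female 3, edgeR called *Id1*, *Lcn2* and *Cebpd* too (adjusted p = 0.0388, 0.0405 and 0.0416), with *Lcn2* at a log2 fold change of 1.83. *Id1* and *Id3* are also expressed outside hepatocytes. In females 9 of 9 Kupffer cell markers, 8 of 8 endothelial and 6 of 6 stellate cell markers had a positive log2 fold change, as had 4 of 4 B and T cell markers. The first 3 lists had sums of 171 to 810, 54.8 to 146 and 25.1 to 58.8 CPM in females, against 176 to 276, 56.9 to 90.0 and 10.1 to 23.9 CPM in males. Of these, *Csf1r* and *Col1a1* were called. Of the hepatocyte markers tested, 5 of 7 were positive in females over males, and *Alb* was called higher in females. Their sums were 154638 to 239003 CPM in females and 89208 to 160674 CPM in males. The part of all these cell markers in the sex differences was not tested.

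*Alas2*, the heme synthesis enzyme of red cell precursors, whose transcript also carries an iron responsive element, was lower in females. It had 0 to 0.46 CPM in the 7 females, with a median of 0.29, against 5.45 and 3.78 CPM in IDH2 KO males and 5.56, 12.1 and 6.27 CPM in WT males. The highest female lay below the lowest male, and the log2 fold change of females over males was −4.66 (SE 0.45, adjusted p = 1.53e-05, edgeR). Of all genes tested, 2.73% had no overlap between the sexes and 0.827% were called lower in females. *Alas2* lies on the X chromosome, and 40 reads in all were found in females against 684 in males. RefSeq lists 3 transcripts for *Alas2*, and how reads that fit several of them were counted is not known. The erythroid marker list around it did not move alike: 5 of its 7 tested genes were positive in females over males, and its sum was 26.7 to 219 CPM in females and 24.2 to 313 CPM in males.

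Levels of genes that act on each other were set side by side across the mice in 4 relations of log2 CPM. *Hamp* and *Bmp6* gave a Pearson r of 0.09 (permutation p = 0.785; Spearman rho 0.07, p = 0.836; n = 12), and r was 0.18 without the 2 libraries farthest from the median of *Hamp*. *Hamp* and *Id1* gave −0.12 (permutation p = 0.704; rho −0.03, p = 0.940; n = 12), and 0.20 without the 2 farthest. *Hamp* and *Hamp2* were related within females only, as the sexes form separate clusters, and gave 0.18 (exact permutation p = 0.687; rho 0.07, exact p = 0.906; n = 7) and −0.63 without the 2 farthest. None of the 3 relations stood out from the spread between mice.

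*Fth1* and *Ftl1* gave an r of 0.47 (permutation p = 0.124; rho 0.20, p = 0.546; n = 12). It was 0.03 without IDH2 KO female 3 and IDH2 KO male 2, so the relation rests on those libraries. The lowest adjusted p of Pearson's r over the 4 relations was 0.497. Within the 7 females r was 0.29 for *Hamp* and *Bmp6*, −0.28 for *Hamp* and *Id1* and 0.71 for *Fth1* and *Ftl1*.

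By likeness of pattern over the 12 libraries, among 5867 other genes with a mean of at least 1 CPM, the 3 genes most like *Hamp* and the 3 most like *Hamp2* were different ones. *Tmem147* (Pearson r = 0.86), *Snrpg* (0.85) and *Fbxo4* (0.83) headed the list for *Hamp*. *Amdhd1* (0.96), *Aldh1b1* (0.94) and *Serpina6* (0.93) headed that for *Hamp2*, of which *Serpina6* encodes the corticosteroid-binding globulin of plasma. In females and males, *Amdhd1* averaged 47.6 CPM and 33.0 CPM, *Aldh1b1* 76.2 CPM and 38.5 CPM, and *Serpina6* 954 CPM and 307 CPM. Of the 3, *Amdhd1* (adjusted p = 0.241) and *Aldh1b1* (adjusted p = 0.0604) were not called between the sexes by edgeR. *Hamp* itself ranked number 1646 for likeness to *Hamp2*, with an r of 0.22. These are descriptions over libraries that share genotype, sex and depth.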

How the data were processed

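Per gene, the authors deposited raw counts as whole numbers, and a second table with a filtered subset of those rows. FastQC and build GRCm38.p5 appear in the submitters' processing notes, while no source used here gives the aligner, the counter or the treatment of reads matching several genes. Counts were fitted across all genes in edgeR 4.0.16 (R 4.3.3; quasi-likelihood, robust, TMM, filterByExpr with minimum count 10 and total 15; Benjamini-Hochberg, threshold 0.05), with sex and genotype as terms. DESeq2 1.42.0 and limma 3.58.1 were alternatives, beside other scalings and filters, a fit with a replicate block, and fits that leave out each library in turn. Ratios, with 0.5 reads added, were tested over 350 splits, and correlations of log2 CPM plus 0.5 over 100000 permutations (scipy 1.17.1, Python 3.11.15). Of the ratios and relations planned, those with *Tfrc* or *Saa1* could not be computed, with no or too few reads. Likeness used Pearson's r of log2 CPM plus 0.5. The fits were tested on simulated counts. Of 2-fold changes put in, 25% were recovered for genotype, 1% for the interaction and 32% for sex. Of 4-fold changes, 89%, 18% and 92% were recovered, so a gene not called may still differ.

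The genes and lists were chosen with earlier results of these data known. The text names all 10 genes, every called gene of the wider lists and up to 3 of each list with the lowest p in IDH2 KO against WT, ferritin rows, and 3 genes most like each hepcidin gene. *Alas2*, a marker, was named after its values were seen. Coordinates are from GENCODE M21 (GRCm38), and promoters and transcript numbers from RefSeq.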

Additional observations from a re-analysis of the deposited data

Results flagged for a closer look

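Among the 5 IDH2 KO libraries, *Tfr2* of IDH2 KO female 3 stood far from the others, at 0.44 CPM against 2.83 CPM in the nearest library. The gap was 0.83 of the whole range on the log2 scale, above the critical value of 0.71 for 5 values. It was the only such value in 24 groups of libraries examined for the 8 genes with reads, and chance flags about 1 group in 20.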

How the results depend on the processing

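*Hamp2* was called higher in females under all 22 alternatives (log2 fold change 3.05 to 3.71), and its ratio to *Hamp* differed between the sexes under all 13 (3.05 to 3.88). None of the 8 iron genes with reads was called for genotype or for the interaction under any alternative. *Tfrc* and *Slc40a1*, with 0 reads, could not be tested. Replicate numbers did not pair the libraries (correlations of −0.15 to 0.07). With a replicate block 33 genes were called for genotype, 0 for the interaction and 110 for sex, and *Hamp2* stayed higher in females (3.20, adjusted p = 0.0123, edgeR). Counts of called genes were 29 for genotype, 0 for the interaction and 151 for sex. They became 205, 48 and 457 with no filter on low counts, and 63, 10 and 336 with DESeq2. The unequal-variance test of log2 RPM plus 1 called 1 gene for genotype. For the interaction, no scaling factors gave 1 gene and limma on log2 RPM plus 1 gave 2. Leaving out each library gave 19 (without IDH2 KO female 1) to 33 (without IDH2 KO female 3) genes for genotype, 0 to 2 (without IDH2 KO female 3) for the interaction and 80 (without IDH2 KO male 2) to 328 (without IDH2 KO female 3) for sex, where 95 were called without IDH2 KO male 1.

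Signs of small differences were unstable. For IDH2 KO over WT, *Hamp2* had 0.14 with no sex term and −0.48 to 0.16 with each library left out. Over the same omissions *Ftl1* had −0.053 to 0.31, *Fkbp1a* −0.029 to 0.34, *Steap4* −0.54 to 0.059, *Mcoln1* −0.12 to 0.068 and *Fbxl5* −0.014 to 0.33. Females over males shifted by a median of −0.27 over all genes with no scaling factors, where *Hamp* had −0.25, *Fth1* −0.11 and *Ftl1* −0.25. With limma on log2 RPM plus 1 these were −0.22, −0.13 and −0.27, and with 0.5 added −0.22, −0.13 and −0.27. With the replicate block *Hamp* had −0.072 and *Ftl1* −0.078, and among WT libraries only *Fth1* had −0.29 and *Ftl1* −0.069. Leaving out each library gave −0.10 to 0.35 for *Hamp*, −0.039 to 0.33 for *Fth1* and −0.15 to 0.10 for *Ftl1*. The log2 ratio of *Ftl1* over *Fth1* between genotypes was 0.32 to 0.59 with each library left out. Its exact permutation p was then 0.0100 (without WT female 4) to 0.229, against 0.103 with all libraries. *Lcn2* in IDH2 KO over WT was called with no filter (2.37, adjusted p = 5.51e-13) and by DESeq2. The causes were not tested. *Hfe*, *Tfr2* and *Bmp6* rest on few counts, at 0 to 105 reads a library.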
